A study of Homo sapiens with 24 samples.

Results

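The 41 genes described here protect cells from ferroptosis or set the redox and iron background against which it occurs. They were taken by symbol from the 37416 genes listed, and all 41 were found. They fall into 6 roles: 4 enzymes that stop lipid peroxidation, 6 genes of cystine uptake and glutathione, 10 genes of the NRF2 response with thioredoxin and peroxiredoxins, 12 genes of iron handling, 5 heat shock and mitochondrial genes, and 4 genes that feed lipid peroxidation. Their mRNA was measured in 4 human breast cancer lines that the study describes as triple-negative, BT549, HCC1806, MDAMB231 and MDAMB468, each carrying a lentiviral short hairpin, either one that targets ADAR1 (shADAR1) or one without a target (shNT). ADAR1, encoded by ADAR, is an RNA-editing enzyme that turns adenosine into inosine in double-stranded RNA. There were 3 biological replicates per line and hairpin, 24 libraries in 8 groups. Both arms went through the same 24 h of lentiviral infection and 72 h of puromycin (2 µg/ml), so the shNT cells are infected and selected cells, not untouched ones. The labels give neither the hairpin's sequence nor how many hairpins were used. RNA came from the whole culture, so less RNA per cell and fewer cells with the RNA cannot be told apart.

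Ferroptosis is a form of cell death in which iron drives the peroxidation of membrane lipids. The selenoenzyme GPX4 reduces lipid peroxides at the expense of glutathione, whose cysteine enters the cell as cystine through system xc-, a dimer of SLC7A11 and SLC3A2. AIFM2 (FSP1), DHODH and GCH1 each keep a lipid-soluble radical trap reduced or in supply, coenzyme Q for the first pair and tetrahydrobiopterin for GCH1. The transcription factor NRF2 (NFE2L2), held in check by KEAP1, switches on many of these genes, and the store of free iron depends on uptake by TFRC, storage in ferritin (FTH1 and FTL), its breakdown through NCOA4, and export by SLC40A1.

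Iron controls part of this set through a hairpin in the mRNA, the iron-responsive element, which the iron regulatory proteins bind when iron is scarce. ACO1 and IREB2 encode these 2 proteins. In a 5′ UTR their binding blocks translation, as in ferritin, and in the 3′ UTR of TFRC it protects the mRNA from decay. The element was searched in GENCODE 29 transcripts (GRCh38) as a bulged c, a short paired stem and the loop CAGTGN. It was found in 37 of 19922 coding genes in the 5′ UTR (0.186%) and in 164 in the 3′ UTR (0.823%), and 4 members held it. The search required the loop CAGTGN and pairing of every base of the stem between bulge and loop. An element of another shape would be missed, in these 4 genes as in the other members. The elements are shown because they separate these 4 genes into a storage and export side and an uptake side, with the loop in capitals:
FTH1, 5′ UTR, chr11:61967574-61967602, minus strand: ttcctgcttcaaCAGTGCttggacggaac
FTL, 5′ UTR, chr19:48965335-48965363, plus strand: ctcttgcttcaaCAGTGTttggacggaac
SLC40A1, 5′ UTR, chr2:189580661-189580689, minus strand: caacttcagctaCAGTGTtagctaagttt
TFRC, 3′ UTR, chr3:196050463-196050491, minus strand: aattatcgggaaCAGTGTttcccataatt
TFRC, 3′ UTR, chr3:196050510-196050538, minus strand: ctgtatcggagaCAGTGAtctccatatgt
TFRC, 3′ UTR, chr3:196050575-196050603, minus strand: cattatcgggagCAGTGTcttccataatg
TFRC, 3′ UTR, chr3:196050979-196051007, minus strand: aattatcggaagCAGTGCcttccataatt
The search found 4 elements in the 3′ UTR of TFRC and 1 each in the 5′ UTR of the other 3 genes. These need not be all the elements they hold. A match is a description of the letters, not a measurement of binding.

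NRF2 acts through the antioxidant response element, whose core was searched on both strands as TGACNNNGC. RefSeq promoters (GRCh38.p14, from 250 bases before to 50 bases after a start) were on hand for 27 of the 41 members, and 9 of those held the core: AIFM2, SLC3A2, GCLM, KEAP1, TXNRD1, ME1, NCOA4, PCBP1 and HSPB1. Counted by promoter, 10 of the 40 entries of these genes held it (25%), against 13.3% of all 35116 promoters of that table. A core outside the window searched would be missed, so a member without a match was not shown to lack the element. In NCOA4 (base 24) and HSPB1 (bases 26 and 42) the matches lay only after the start. One match each, upstream of the start, is shown for 4 of the 9 genes with the core as examples. The core, in either orientation, is in capitals, and ME1 and TXNRD1 have other matches that are not shown:
GCLM, chr1:93909436-93909484, minus strand: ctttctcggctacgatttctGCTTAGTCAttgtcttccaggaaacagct
SLC3A2, chr11:62881642-62881690, plus strand: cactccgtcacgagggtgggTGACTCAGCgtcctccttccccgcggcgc
ME1, chr6:83431160-83431208, minus strand: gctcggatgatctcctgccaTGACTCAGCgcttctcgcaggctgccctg
TXNRD1, chr12:104215660-104215708, plus strand: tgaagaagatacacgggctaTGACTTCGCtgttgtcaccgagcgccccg
Of the 9 genes with the core, AIFM2, SLC3A2, GCLM, ME1 and NCOA4 were higher in every shADAR1 library of BT549 than in any control library. Across all genes, 8.24% lay apart upwards in that line. In KEAP1, TXNRD1, PCBP1 and HSPB1 the arms overlapped there. In the other lines, PCBP1 in MDAMB468 was the only one of the 9 with arms apart, and it was higher. Of the genes apart in BT549, only ME1 passed a test there, in edgeR with the replicate block described below (adjusted p = 0.00638). A part of the core in these changes was not tested.

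Levels are given as CPM, a gene's read count relative to the size of its library after scaling by trimmed mean of M values, and a change is the log2 fold change of shADAR1 over shNT with its standard error (SE). Unless said otherwise, each SE is that of the edgeR fit without the replicate block, also where a p-value of the fit with the block stands beside it. Total counts ran from 10370645 to 97218217 per library, and mitochondrial genes took 3.15% to 6.07% of them. The targeted gene ADAR was lower in every shADAR1 library than in any control of its line, at 0.261, 0.331, 0.219 and 0.371 of the control level in BT549, HCC1806, MDAMB231 and MDAMB468. MDM2, which the study's title names, was higher by a mean log2 of 0.70 over the 4 lines (edgeR adjusted p = 5.93e-08). BT549 had under 1 CPM of all 8 epithelial markers tried (their sum was 0.724 to 2.16 CPM per library), against 936 to 1160 CPM in MDAMB231, 4090 to 4810 in HCC1806 and 4850 to 6010 in MDAMB468. In MDAMB231, 4 of the 8 also averaged under 1 CPM. The 5 mesenchymal markers tried (VIM, ZEB1, CDH2, FN1 and SPARC) summed to 6910 to 9140 CPM in BT549. Their sum was 4610 to 6040 CPM in MDAMB231, with 2 of the 5 under 1 CPM. It was 77.7 to 341 CPM in HCC1806 and 49.1 to 107 in MDAMB468. ESR1 stood at 18.0 to 21.1 CPM in the HCC1806 controls and ERBB2 between 69.8 and 115 CPM in all controls. Leukocyte, endothelial and adipocyte lists summed to at most 5.07 CPM. The fibroblast list reached 76.8 CPM in BT549, mostly LUM at 58.5 ± 15.6 CPM (SD, n = 3) in its controls. The part of these marker differences in the differences between lines below was not tested.

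Every member that could be tested differed between the lines in the control libraries. The 40 tested members all differed among the 4 shNT groups (edgeR joint test, adjusted p under 0.05), where 85.9% of all 21352 genes tested did. That background holds many genes of low count, whereas most members are well expressed. When a gene had to reach 10 counts in each of the 24 libraries, 11287 of 11794 genes passed the joint test. ALOX15B, a lipoxygenase, was not tested, with 21 counts over the 24 libraries and no library above 0.0920 CPM. Between lines, 33 of the 40 differed between BT549 and HCC1806 (63.5% of all genes), 31 between BT549 and MDAMB231 (56.5%) and 33 between BT549 and MDAMB468 (61%). Likewise 36 differed between HCC1806 and MDAMB231 (59%), 31 between HCC1806 and MDAMB468 (62.9%) and 31 between MDAMB231 and MDAMB468 (61.8%). Under the stricter count filter, 8172 (BT549 and MDAMB231) to 8781 (HCC1806 and MDAMB468) of 11794 genes differed between a pair of lines. The shares over all genes are therefore a low background for these members. Whether the members differed more often than genes of like level was not tested. HCC1806 had the highest control level for 18 of the 37 members with a mean of at least 5 CPM (48.6%), and the lowest for 2; among all 11743 genes at that level it was highest for 27.5%. Of the 36 members that differed from MDAMB231, 30 were higher in HCC1806, as were 53.2% of all genes that differed between these lines. The line and its culture cannot be told apart in these contrasts.

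**Figure D1:**
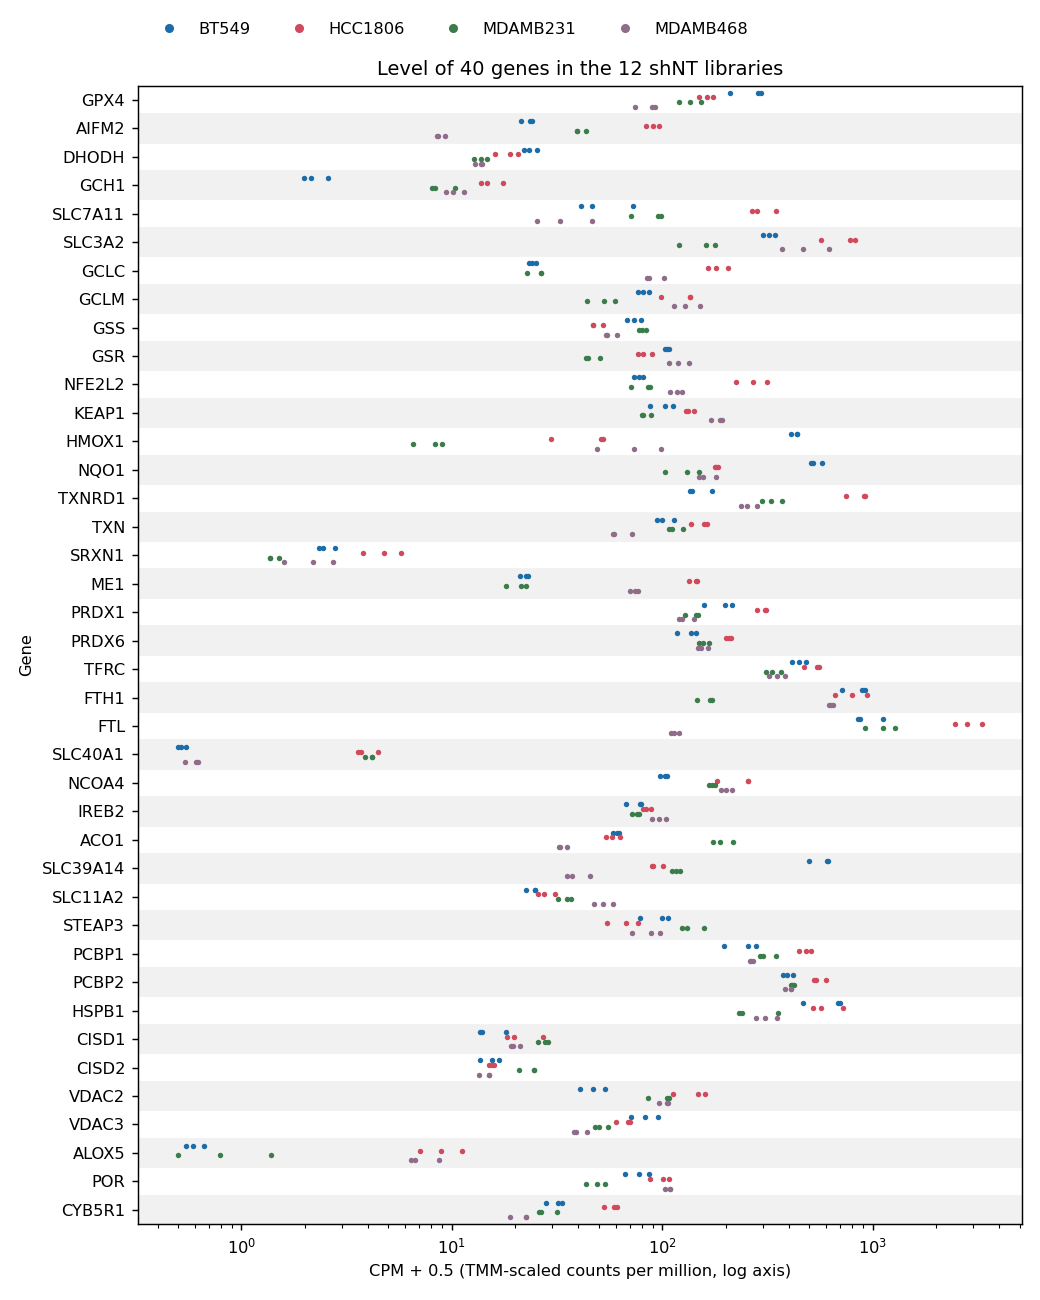
CPM + 0.5 on a log axis for the 40 tested genes in each of the 12 shNT libraries, coloured by line, 3 points per line. Among the 37 genes with a mean at or above 5 CPM, HMOX1, FTL, SLC39A14, SLC7A11 and AIFM2 spread the lines widely. IREB2, PCBP2 and TFRC lie close together, and HCC1806 is the highest line for 18 of the 37. Below that level, SLC40A1 (168-fold) and ALOX5 (86.1-fold) also differed widely in mean CPM without the 0.5 added, with some lines near 0.

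Few members passed a test of the ADAR1 knockdown. In edgeR without a replicate block, 1 of the 40 tested members passed in any line: GSR fell in MDAMB231. The counts were BT549 0 (0.473% of all genes passed), HCC1806 0 (0.0468%), MDAMB231 1 (2.01%), MDAMB468 0 (0.0375%), and 0 for the mean of the 4 lines (2.96%) and 0 in the joint test, which asks whether the change differed among the lines (0.0234%). At an unadjusted p under 0.05, edgeR counted 3, 0, 6 and 1 members in BT549, HCC1806, MDAMB231 and MDAMB468 (6.42%, 4.35%, 11.7% and 3.76% of all genes), 8 in the mean (12.8%) and 1 in the joint test (4.44%). DESeq2, also without a block, called 0, 0, 2 and 0 members in those lines (1.4%, 0.197%, 3.8% and 0.197% of all genes), 3 in the mean (4.94%) and 0 in the joint test (0.586%). Its calls were GSR and GCH1 in MDAMB231, and SLC7A11, GSR and ACO1 in the mean. The median change over the members was 0.03, -0.06, 0.03 and 0.00 on the log2 scale in BT549, HCC1806, MDAMB231 and MDAMB468, against 0.01, 0.00, 0.00 and 0.01 over all genes.

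Same-numbered libraries of the arms moved together in all 4 lines, so these counts are set beside a fit that takes the replicate number as a block. It called 6 members for BT549 (5.14% of all genes), 1 for HCC1806 (2.1%), 8 for MDAMB231 (11.4%), 0 for MDAMB468 (1.66%), 8 in the mean of the lines (13.2%) and 3 in the joint test of a difference (4.69%). Set against the share over all genes, these are at most 4 genes more than 40 genes at that share would give, a difference that was not tested. In MDAMB468 the blocked fit had 7 members at an unadjusted p under 0.05, and 11% of all genes. Over the 4 lines, 8 members passed on average: SLC7A11, NFE2L2 and VDAC2 were higher, and GSR, ACO1, SLC39A14, IREB2 and TFRC were lower. Over all 21352 genes tested, 1547 were called higher and 1273 lower in the blocked mean. The 4 lower genes of the iron group are a transporter, a receptor and both iron regulatory proteins, and whether they fell as a group was not tested.

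**Figure D2:**
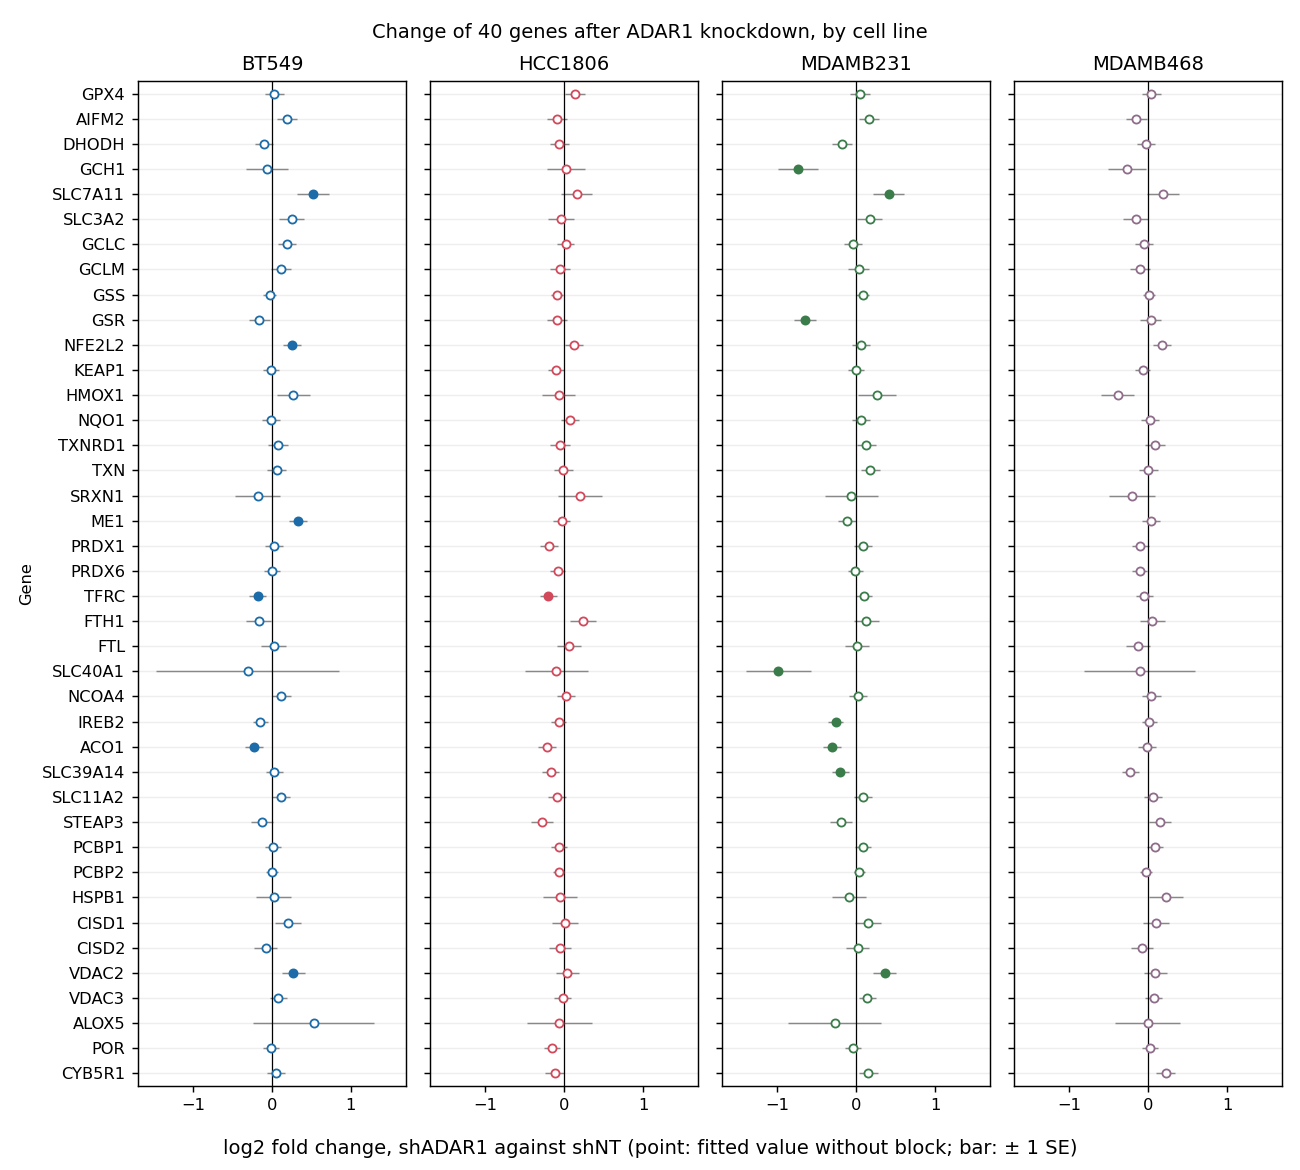
Log2 fold change of shADAR1 against shNT for the 40 tested genes in each line, with 1 SE from the fit without block; filled points passed an adjusted p of 0.05 with the replicate block. BT549 has 6 filled points, HCC1806 1, MDAMB231 8 and MDAMB468 0, and SLC7A11, VDAC2 and ACO1 are filled in both BT549 and MDAMB231.

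Arms that did not overlap, with all 3 shADAR1 libraries on one side of all 3 shNT libraries, were seen for 11 of 40 members for BT549 (14.7% of all genes), 1 for HCC1806 (7.58%), 7 for MDAMB231 (14.2%) and 4 for MDAMB468 (11%). In BT549 9 of the 11 were higher (8.24% of all genes lay apart upwards and 6.43% downwards): AIFM2, SLC3A2, GCLC, GCLM, NFE2L2, HMOX1, ME1, NCOA4 and SLC11A2. Of these 9, 8 had a promoter entry and 5 of those held the antioxidant response element core, beside 9 of the 27 members with an entry. The 5 are among those 9, and the genes apart in BT549 were picked by their values in these libraries. These counts are therefore no comparison of separate sets, and a link of the core to the change was not tested. In MDAMB231 SLC7A11 and VDAC2 were higher (7.19% of all genes) and GCH1, GSR, SLC40A1, IREB2 and SLC39A14 were lower (7.01%). In MDAMB468 PCBP1 and CYB5R1 were higher (6.69%) and PRDX6 and SLC39A14 lower (4.3%). ACO1 was the member whose arms did not overlap in HCC1806, and it was lower (3.2% of all genes, with 4.38% higher). CISD1, GPX4, NCOA4, NFE2L2, SLC7A11 and VDAC2 had a positive fitted change in all 4 lines (15.0% of the members, 12.3% of all genes), and ACO1, DHODH, KEAP1 and SLC40A1 a negative one (10.0% and 9.41%).

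Of the 4 enzymes that stop lipid peroxidation, GCH1 alone passed a test of the knockdown, in MDAMB231, with the block in edgeR and without it in DESeq2. GPX4 (chr19:1103926-1106791), the peroxidase that reduces lipid peroxides in membranes, averaged 263, 162, 136 and 84.7 CPM in the BT549, HCC1806, MDAMB231 and MDAMB468 controls. BT549 stood above HCC1806 by 0.70 log2 (adjusted p = 3.13e-05), HCC1806 and MDAMB231 did not differ beyond their spread (0.25, adjusted p = 0.0846), and MDAMB468 was lowest. Its change on knockdown was 0.03 ± 0.123, 0.14 ± 0.123, 0.05 ± 0.123 and 0.04 ± 0.123 (SE), and the blocked adjusted p was 0.534 or above in each line.

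AIFM2 (chr10:70098223-70132934), which reduces coenzyme Q at the plasma membrane, varied 10.8-fold between lines. Its control CPM was 90.4, 96.2 and 83.4 in HCC1806, 39.0, 38.8 and 42.9 in MDAMB231, 23.5, 23.1 and 20.8 in BT549, and 8.11, 7.98 and 8.81 in MDAMB468. Each step in that order passed the test, so MDAMB468 had the lowest level of both GPX4 and AIFM2 among the 4 lines. In BT549 the shADAR1 libraries read 25.1, 27.2 and 24.8 CPM, above all controls, but the change of 0.19 ± 0.124 did not pass (adjusted p = 0.961, or 0.225 with the block).

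DHODH, which reduces coenzyme Q in the inner mitochondrial membrane, was lower in its shADAR1 library in 12 of 12 same-numbered pairs. For this and all later pair counts, the share over all genes was not computed. The mean change of DHODH was small at -0.09 ± 0.0593 and did not pass (adjusted p = 0.584, or 0.122 with the block). Its mean control levels were 23.1, 18.0, 13.2 and 13.0 CPM for BT549, HCC1806, MDAMB231 and MDAMB468, the last pair not different beyond their spread (adjusted p = 0.873).

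GCH1 (chr14:54842008-54902852), the first enzyme of tetrahydrobiopterin synthesis, was low in BT549 controls at 1.74 CPM and stood at 14.8, 8.41 and 9.86 in HCC1806, MDAMB231 and MDAMB468. In MDAMB231 it read 7.84, 9.86 and 7.54 CPM in shNT and 3.02, 7.497 and 4.43 in shADAR1. All 3 shADAR1 values lay below the controls, replicate 2 only just. The change was -0.74 ± 0.251, with an edgeR adjusted p of 0.175 without the block and 0.00977 with it and a DESeq2 one of 0.0462, and the blocked call was lost when the first or the third pair was left out (adjusted p up to 0.0952). The fitted changes in the other lines were -0.06, 0.02 and -0.27, and the joint test did not find a difference between lines (adjusted p = 0.222 with the block).

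SLC7A11 (chr4:138164097-138242349), the cystine-importing chain of system xc-, was higher in shADAR1 in 11 of 12 same-numbered pairs. In BT549 it read 40.5, 45.9 and 72.1 CPM in shNT and 63.2, 71.2 and 92.9 in shADAR1. In HCC1806 the values were 281, 346 and 268 against 338, 374 and 289, and in MDAMB231 95.1, 70.7 and 98.6 against 119, 109 and 122.5. In MDAMB468 they were 24.9, 32.2 and 45.8 against 37.0, 38.4 and 41.3. The replicates of a line were spread widely, the arms overlapped in 3 of the 4 lines, and MDAMB231 was the line where they did not.

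The fitted changes of SLC7A11 were 0.52 ± 0.201, 0.16 ± 0.199, 0.41 ± 0.202 and 0.18 ± 0.203 for BT549, HCC1806, MDAMB231 and MDAMB468, and its mean of 0.32 ± 0.101 missed the threshold in edgeR without the block (adjusted p = 0.105) and passed in DESeq2 (0.0491). With the block the mean was 0.33 (adjusted p = 1.57e-05), BT549 0.55 (0.000461) and MDAMB231 0.42 (0.00276). The mean passed whichever of the 12 pairs was left out (log2 0.30 to 0.39), the BT549 call passed without any 1 of its 3 pairs, and the MDAMB231 call was lost without its second pair (adjusted p = 0.0839). The blocked joint test did not find that the change differed between lines (adjusted p = 0.157). Its baseline differed more: HCC1806 controls averaged 298 CPM, 8.68 times the 34.3 CPM of MDAMB468, with MDAMB231 at 88.1 and BT549 at 52.8, and each neighbouring step passed.

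SLC3A2, the heavy chain that carries SLC7A11 to the membrane, did not share this pattern throughout. In BT549 it read 320, 302 and 342 CPM in shNT and 394, 391 and 359 in shADAR1, without overlap, but the change of 0.25 ± 0.161 did not pass even with the block (adjusted p = 0.198). The fitted changes were -0.04 in HCC1806, 0.17 in MDAMB231 and -0.16 in MDAMB468.

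GCLC and GCLM, the catalytic and modifier subunits of the enzyme that makes the first bond of glutathione, had higher shADAR1 values in all 3 BT549 pairs and mixed ones elsewhere. GCLC in BT549 read 22.8, 23.7 and 24.5 CPM in shNT and 26.1, 28.6 and 26.0 in shADAR1 (0.19 ± 0.114, blocked adjusted p = 0.12), and GCLM 76.4, 80.7 and 85.7 against 88.0, 86.9 and 87.5 (0.11 ± 0.127, blocked adjusted p = 0.481). At baseline GCLC averaged 183 CPM in HCC1806 and 90.8 in MDAMB468 but 24.8 and 23.7 in MDAMB231 and BT549, which did not differ beyond their spread (adjusted p = 0.597). GSS, which completes glutathione, ranged only from 48.3 CPM in HCC1806 to 80.03 in MDAMB231, and no change of it passed.

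GSR (ENSG00000104687), glutathione reductase, which regenerates reduced glutathione with NADPH, was the 1 member that edgeR called in a line without the block. In MDAMB231 it read 43.0, 50.2 and 44.0 CPM in shNT and 20.8, 38.1 and 28.2 in shADAR1. The arms did not overlap, and replicate 1 of shADAR1 was the lowest. The change was -0.65 ± 0.136 on the log2 scale (edgeR adjusted p = 0.0086, 1.13e-05 with the block, DESeq2 0.000114). Without the block it no longer passed when replicate 1 of shADAR1 (adjusted p = 0.06) or replicate 2 of shNT (0.058) was left out, or when the line's 6 libraries were fitted alone (0.184). With the block it passed without any 1 of the 3 pairs, at -0.81 to -0.52.

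GSR passed in no other line. In BT549 it read 107, 104 and 102 CPM in shNT and 92.8, 95.9 and 92.5 in shADAR1, again without overlap, but the change was only -0.16 ± 0.132 (blocked adjusted p = 0.291). The changes were -0.09 ± 0.132 in HCC1806 and 0.03 ± 0.132 in MDAMB468. The blocked joint test found a difference between lines (adjusted p = 0.00327, at most 0.0106 without any 1 pair), while the joint test without the block did not (adjusted p = 0.781). MDAMB231, where it fell, also had the lowest control level, 45.7 CPM, below HCC1806 at 82.1 by 0.84 log2 (adjusted p = 1.02e-05), with BT549 at 104.5 and MDAMB468 at 120.

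**Figure D3:**
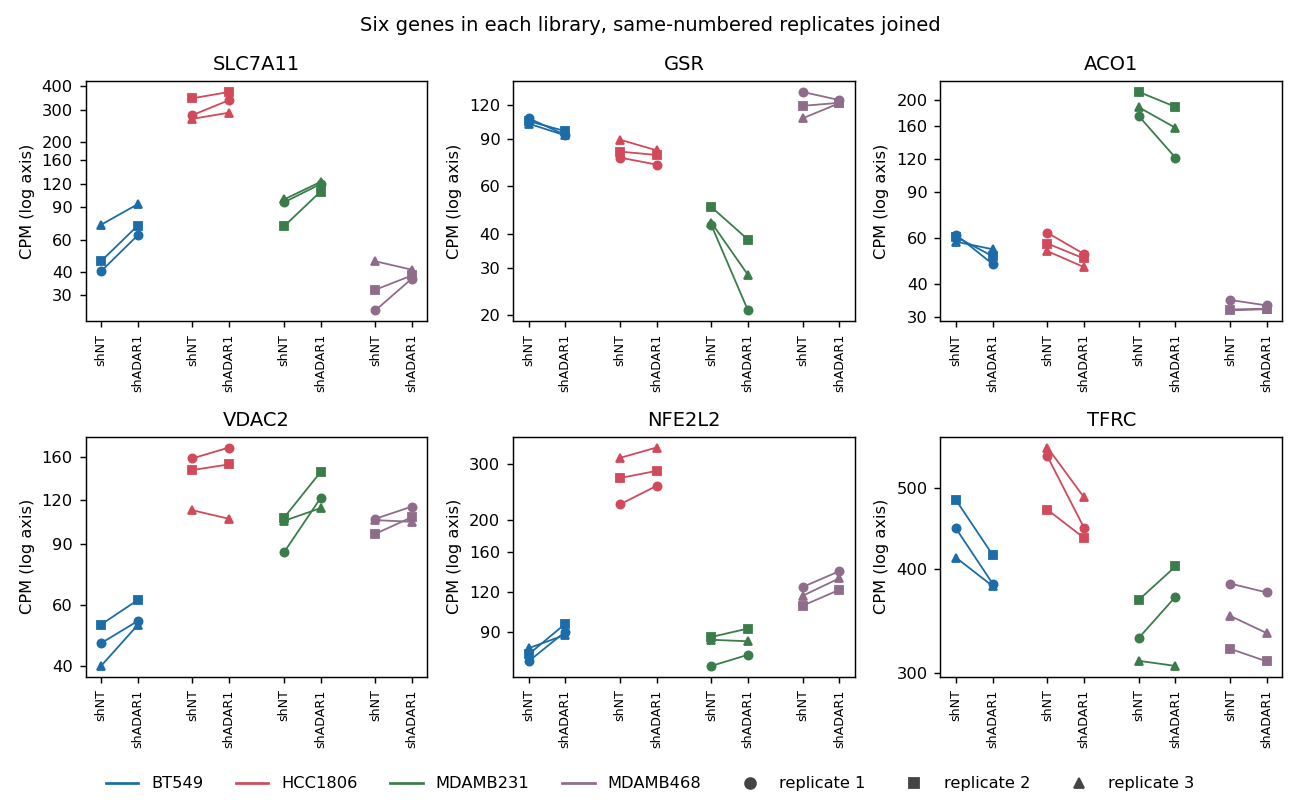
CPM on a log axis of 6 genes in each library, with same-numbered shNT and shADAR1 libraries of a line joined and the replicate given by the symbol. The shADAR1 library is the higher of the pair in 11 of 12 joins for SLC7A11 and NFE2L2, and the lower in 10 for GSR, ACO1 and TFRC. How many of all genes reach such counts was not computed.

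Of the 10 genes of the NRF2 response, NFE2L2 passed in the mean of the lines with the block, and none did without it in edgeR or DESeq2. NFE2L2 (chr2:177227595-177392697) itself was higher in shADAR1 in 11 of 12 same-numbered pairs. It read 73.0, 76.7 and 80.1 CPM in BT549 shNT and 90.1, 95.3 and 88.1 in shADAR1, without overlap. In HCC1806 the values were 224, 271 and 313 against 256, 285 and 337, in MDAMB231 70.6, 86.9 and 85.1 against 76.5, 92.3 and 84.2, and in MDAMB468 124, 109 and 117 against 139, 122 and 132. The fitted changes were 0.25, 0.12, 0.06 and 0.17, and their mean of 0.15 ± 0.0572 passed only with the block (adjusted p = 0.222 without, 0.000299 with it). The mean passed whichever of the 12 pairs was left out (log2 0.14 to 0.17), whereas the BT549 call (0.00429) was lost without its first or second pair. KEAP1, the adaptor that sends NRF2 for degradation, had a mean change of -0.04 ± 0.0489.

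Of the classic NRF2 targets, HMOX1 (chr22:35380361-35394214), which breaks down heme and frees its iron, had the widest range between lines among the 37 members with a mean of at least 5 CPM. Its controls read 437, 438 and 411 CPM in BT549, 48.5, 72.9 and 98.1 in MDAMB468, 29.2, 52.0 and 50.5 in HCC1806, and 7.84, 6.05 and 8.47 in MDAMB231. BT549 stood 57.5-fold above MDAMB231, and each step in the order passed (adjusted p = 0.00443 between MDAMB468 and HCC1806). In BT549 shADAR1 it read 536, 563 and 455 CPM, above all controls, at a change of 0.27 ± 0.209, while in MDAMB468 shADAR1 it read 49.7, 64.6 and 53.9 at -0.39 ± 0.211. Neither passed with the block (adjusted p = 0.167 and 0.135), and the blocked joint test gave 0.0576.

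NQO1, a quinone reductase, was also highest in BT549, at 534 CPM against 181, 162 and 128 in HCC1806, MDAMB468 and MDAMB231, and its changes lay between -0.01 and 0.07 in the 4 lines. HCC1806 and MDAMB468 did not differ beyond their spread (adjusted p = 0.253). TXNRD1 and ME1 were instead highest in HCC1806, as was NFE2L2 itself, so the targets did not share 1 order of lines. TXNRD1, thioredoxin reductase, averaged 859 CPM in HCC1806, 331 in MDAMB231, 257 in MDAMB468 and 149 in BT549, and its changes lay between -0.05 and 0.13. NFE2L2 averaged 269, 117, 80.9 and 76.6 CPM in HCC1806, MDAMB468, MDAMB231 and BT549, the last pair not different beyond their spread (adjusted p = 0.576).

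ME1 (chr6:83210389-83431071), malic enzyme, makes NADPH in the cytosol. In BT549 it read 20.5, 22.0 and 22.5 CPM in shNT and 27.0, 29.5 and 25.3 in shADAR1, and the arms did not overlap. The change of 0.33 ± 0.113 passed with the block only (adjusted p = 0.358 without, 0.00638 with it), and that call was lost without the first or the second pair. In HCC1806, MDAMB231 and MDAMB468 the changes were -0.03, -0.12 and 0.03. The blocked joint test gave an adjusted p of 0.0454 for a difference between lines, which passed for 4 of the 12 pairs when each was left out in turn.

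TXN, PRDX1, PRDX6 and SRXN1, which reduce protein thiols and peroxides, passed no test of the knockdown. PRDX6, whose phospholipid hydroperoxide activity acts on membranes, read 165, 147 and 152 CPM in MDAMB468 shNT and 142, 142 and 145 in shADAR1, without overlap, at -0.11 ± 0.0964 (blocked adjusted p = 0.472). SRXN1 stood between 0.862 and 5.24 CPM in the controls and shared 85% of its exon bases with another listed gene, so its level is uncertain. PRDX1 shared 24.9% of its exon bases with MMACHC on the other strand.

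Of the 12 iron genes, 4 passed in the mean of the lines with the block, all lower. Over all 21352 genes tested that fit called 13.2%, 1547 higher and 1273 lower. Without the block edgeR called none of the 12 (2.96% of all genes) and DESeq2 called ACO1 (4.94% of all genes). TFRC (chr3:196027183-196082189), the transferrin receptor, in which the search found the 4 elements printed above, read 447, 483 and 413 CPM in BT549 shNT and 384, 416 and 382 in shADAR1. In HCC1806 it read 545, 471 and 558 against 448, 435 and 487, in MDAMB231 331, 367 and 311 against 370, 403 and 306, and in MDAMB468 384, 321 and 351 against 375, 310 and 335. It was lower in 10 of 12 pairs, and the exceptions were the first and second pairs of MDAMB231. The blocked fit called it in BT549 (-0.18, adjusted p = 0.0367) and HCC1806 (-0.20, 0.0434), at a mean of -0.09 (0.0281) and in the joint test of a difference (0.045). None of these passed without the block (adjusted p of 0.558 or above), and the blocked calls were lost in 2 of 3 fits without a BT549 pair, 3 of 3 without an HCC1806 pair, 6 of 12 for the mean and 9 of 12 for the joint test.

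ACO1 (chr9:32384603-32454769), iron regulatory protein 1 and cytosolic aconitase, was lower in shADAR1 in 10 of 12 pairs. It read 61.8, 60.7 and 58.1 CPM in BT549 shNT and 47.9, 51.2 and 54.4 in shADAR1, and 62.8, 57.2 and 53.6 against 52.2, 50.2 and 46.6 in HCC1806. In MDAMB231 the values were 174, 215 and 188 against 121, 189 and 157, and in MDAMB468 34.9, 31.9 and 32.2 against 33.3, 32.2 and 32.4. The arms were apart in BT549 and HCC1806, overlapped in MDAMB231, and lay together in MDAMB468.

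The changes of ACO1 were -0.23 ± 0.114, -0.22 ± 0.115, -0.31 ± 0.114 and -0.02 ± 0.116 in BT549, HCC1806, MDAMB231 and MDAMB468. The mean was -0.19 ± 0.0573 with an edgeR adjusted p of 0.0753 without the block, and -0.20 with one of 0.000201 with it, passing whichever of the 12 pairs was left out (-0.21 to -0.17). DESeq2 called the mean too (adjusted p = 0.012). With the block it passed in BT549 (0.0331, lost without the first or second pair) and MDAMB231 (0.00166, kept without any 1 pair), and not in HCC1806 (0.0922). At baseline MDAMB231 had 193 CPM, above BT549 at 60.2 by 1.68 log2 (adjusted p = 1.98e-11), and MDAMB468 had 33.0.

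IREB2 (chr15:78437431-78501456), iron regulatory protein 2, had nearly the same control level in all lines, from 74.6 to 96.0 CPM. In MDAMB231 it read 75.3, 76.9 and 71.5 CPM in shNT and 55.0, 69.7 and 61.3 in shADAR1, without overlap. The change was -0.26 ± 0.0959 there (adjusted p = 0.216, or 0.00803 with the block, lost without the first pair), and -0.15, -0.07 and 0.01 in BT549, HCC1806 and MDAMB468. Its mean of -0.12 ± 0.0476 passed with the block (0.0122) and not without it (0.255).

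SLC39A14 (ENSG00000104635), a ZIP transporter of iron not bound to transferrin, read 121, 115 and 111 CPM in MDAMB231 shNT and 106, 107 and 90.4 in shADAR1. In MDAMB468 the values were 34.7, 36.7 and 44.6 against 31.2, 33.6 and 34.3. The arms did not overlap in either line. The changes were 0.03, -0.17, -0.20 and -0.23 in BT549, HCC1806, MDAMB231 and MDAMB468, with a mean of -0.14 ± 0.0533 that passed with the block (0.00143) and not without (0.214). BT549 controls averaged 571 CPM, 14.8 times those of MDAMB468 at 38.7.

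The ferritin chains ranked the lines differently and passed no test of the knockdown. FTL, the light chain, averaged 2861 CPM in HCC1806, 1105 in MDAMB231, 948 in BT549 and 114 in MDAMB468, and MDAMB468 lay 3.05 log2 below BT549 (adjusted p = 1.63e-13). FTH1, the heavy chain with the ferroxidase site, averaged 842, 800, 633 and 162 CPM in BT549, HCC1806, MDAMB468 and MDAMB231, where only the last step passed (1.96 log2, adjusted p = 5.06e-10). Per kilobase of gene length, the ratio of FTH1 to FTL was 2.40 ± 0.155 (SD, n = 3) in MDAMB468 controls, 0.388 ± 0.0657 in BT549, 0.121 ± 0.0039 in HCC1806 and 0.0641 ± 0.00495 in MDAMB231. MDAMB468 was the only 1 of the 4 lines in which the heavy chain exceeded the light chain per length. Where a ratio stands against 1 depends on the listed lengths, 2030 bases for FTH1 and 878 for FTL. FTH1 shared 62.4% of its exon bases with BEST1 on the other strand, so part of its count could belong to that gene if strand was not used.

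**Figure D4:**
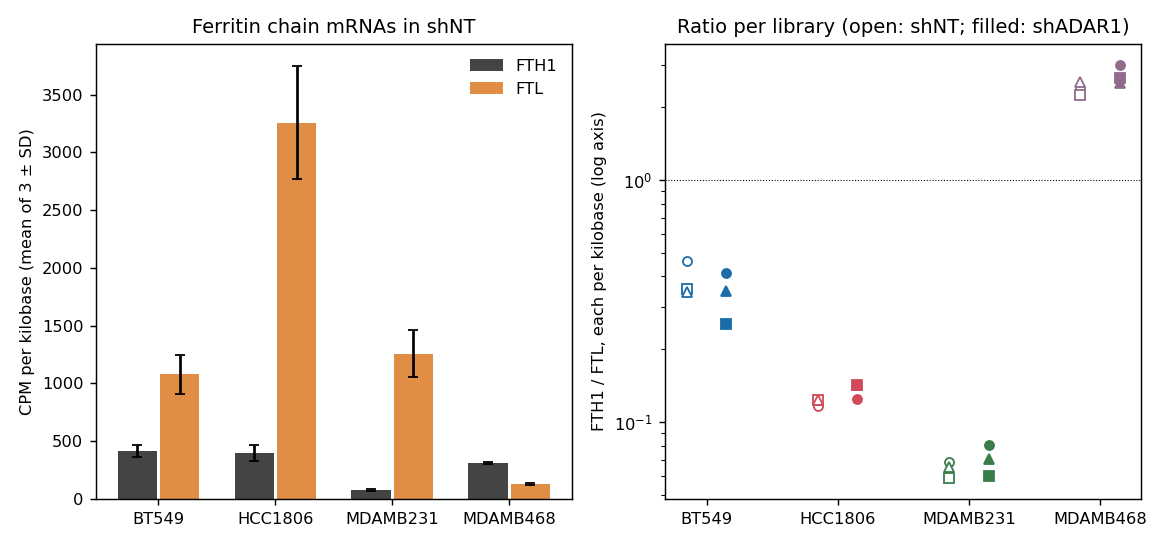
Left, FTH1 and FTL in CPM per kilobase in the shNT libraries (bars: mean of 3, error bars: SD); right, their ratio in every library on a log axis, open for shNT and filled for shADAR1. The ratio lies above 1 in all 6 MDAMB468 libraries, between 2.24 and 3.00, and below 1 in the other 18.

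On knockdown the change of FTH1 was -0.17, 0.24, 0.13 and 0.05 and that of FTL 0.02, 0.06, 0.01 and -0.13 in BT549, HCC1806, MDAMB231 and MDAMB468, and the smallest blocked adjusted p of either in a line was 0.131. SLC40A1, ferroportin, the iron exporter, was listed near 0 in BT549 (at most 0.0465 CPM per control library) and MDAMB468 (at most 0.124) and at 3.42 and 3.59 CPM in HCC1806 and MDAMB231. In MDAMB231 it read 3.69, 3.70 and 3.38 CPM in shNT and 1.34, 2.31 and 1.69 in shADAR1, without overlap. Its change of -0.99 ± 0.413 did not pass without the block (edgeR adjusted p = 0.315). With the block it was -0.99 with an SE of 0.295 and passed (0.0312). That call was lost once any 1 pair was left out (0.0732 to 0.173).

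NCOA4, the receptor that brings ferritin to autophagosomes, was higher in 11 of 12 pairs, but by a mean of only 0.05 ± 0.0582 (blocked adjusted p = 0.183). SLC11A2, which moves iron across membranes, was higher in 10 of 12 pairs at 0.04 ± 0.0572. For these pair counts, too, the share over all genes was not computed. STEAP3, the endosomal ferrireductase, changed by -0.13, -0.28, -0.19 and 0.15, and its blocked joint test gave 0.0541. PCBP1 and PCBP2, cytosolic iron chaperones, changed by at most 0.09 in size in any line. PCBP2 shared 20% of its exon bases with other listed genes.

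Among the mitochondrial genes VDAC2 (chr10:75210154-75231448), an outer membrane channel, was higher in shADAR1 in 10 of 12 pairs. It read 46.7, 52.8 and 40.2 CPM in BT549 shNT and 54.0, 62.1 and 52.6 in shADAR1, and 85.1, 107 and 105 against 122, 145 and 114 in MDAMB231, where the arms did not overlap. In HCC1806 the values were 159, 147 and 113 against 170, 152 and 106, and in MDAMB468 106, 96.3 and 105 against 115, 108 and 104. The changes were 0.27 ± 0.149, 0.04 ± 0.148, 0.36 ± 0.149 and 0.09 ± 0.149 in BT549, HCC1806, MDAMB231 and MDAMB468, and the mean of 0.19 ± 0.0745 passed with the block (0.000483) and not without it (0.242).

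With the block VDAC2 passed in MDAMB231 (adjusted p = 0.00111, kept without any 1 pair) and in BT549 (0.0164, lost in each of the 3 fits without a pair). VDAC3, its close relative, was higher in 9 of 12 pairs at a mean of 0.07 ± 0.0533 (blocked adjusted p = 0.174). CISD1 and CISD2, iron-sulfur proteins of the outer mitochondrial membrane and the endoplasmic reticulum, had means of 0.11 and -0.05 and passed no test. HSPB1, a small heat shock protein that limits iron uptake, was highest in BT549 and HCC1806 controls (616 and 602 CPM, not different beyond their spread, adjusted p = 0.916) and changed by -0.09 to 0.22.

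The genes that feed lipid peroxidation were uneven between lines and passed no test of the knockdown. ALOX5, a lipoxygenase, averaged 8.55 CPM in HCC1806 and 6.78 in MDAMB468 controls, which did not differ beyond their spread (adjusted p = 0.496), and 0.393 and 0.0993 CPM in MDAMB231 and BT549. POR and CYB5R1, oxidoreductases that pass electrons to oxygen and lipids, averaged 48.0 to 107 and 20.9 to 57.1 CPM in the controls. CYB5R1 in MDAMB468 read 22.1, 22.1 and 18.5 CPM in shNT and 24.3, 23.9 and 25.0 in shADAR1, without overlap, at 0.22 ± 0.119 (blocked adjusted p = 0.165).

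In all, 7 wider lists around the set, 127 further genes of which 124 were tested, gave 5 genes past the edgeR threshold in the mean of the lines without the block (2 higher and 3 lower) and 25 with it (11 and 14), beside the 2.96% and 13.2% of all genes given above; DESeq2 called 8 (4.94% of all genes). CYB5R4, a cytochrome b5 reductase in the lipid peroxidation list, fell most firmly. It read 31.4, 23.3 and 27.4 CPM in MDAMB231 shNT and 14.1, 16.1 and 16.6 in shADAR1 (-0.80 ± 0.117, adjusted p = 0.000239), and its mean was -0.39 ± 0.0576 (0.000129). FECH, ferrochelatase, which places iron in heme, fell by a mean of 0.26 (SE 0.056, adjusted p = 0.00877), and SLC48A1, a heme transporter among the NRF2 targets, fell by 0.23 (0.0374). TRIM16, another NRF2 target, rose by 0.24 ± 0.0488 (0.00564) and SARS1, the seryl-tRNA synthetase in the selenoprotein list, by 0.16 ± 0.0422 (0.0412). SLC48A1 read 21.6, 21.5 and 22.4 CPM in BT549 shNT and 16.4, 16.3 and 16.7 in shADAR1, and TRIM16 35.3, 34.6 and 35.1 against 45.3, 46.2 and 45.1, both with close replicates and no overlap.

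By list, without and with the block, 1 and 2 of 10 genes of selenoprotein synthesis passed in the mean, 0 and 3 of 14 of coenzyme Q synthesis, 0 and 1 of 6 of tetrahydrobiopterin metabolism, 2 and 8 of 24 other NRF2 targets, 0 and 4 of 27 other glutathione and thioredoxin genes, 1 and 4 of 30 other iron genes and 1 and 3 of 13 other lipid peroxidation genes. Of the 8 NRF2 targets called with the block 2 were higher and 6 lower, so the list did not move one way. In MDAMB231 EEFSEC, the elongation factor that brings selenocysteine to the ribosome, also fell, from 9.41, 8.50 and 9.33 CPM to 5.70, 5.04 and 6.42 (-0.66 ± 0.148, adjusted p = 0.0144), while in that line GPX4, a selenoprotein mRNA, changed by 0.05 ± 0.123.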

How the data were processed

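The data are RNA-seq read counts of 24 libraries. The deposited files give for each gene a whole-number read count, and, per the file headers, CPM and RPKM values derived from it, which the authors deposited beside the counts and which were not tested here (they equalled the shares computed from the counts within 1.3e-10). Per the submitters' processing notes STAR, featureCounts (Subread) and edgeR were used; the genome build and the use of strand are not given in the sources used here. Libraries were made from 1 µg of RNA after removal of ribosomal RNA, per the labels' protocols.

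Counts as deposited were tested with edgeR 4.0.16 (R 4.3.3): TMM scaling (factors 0.924 to 1.12), filterByExpr over the 8 groups (21352 genes tested), glmQLFit on all 24 libraries with 8 group coefficients, glmQLFTest, and Benjamini-Hochberg adjustment over the whole table (threshold 0.05). Contrasts were shADAR1 against shNT in each line, their mean, their joint difference, and shNT between lines. CPM values in the text are TMM-scaled. The fit without the replicate block was tested on simulated data, with the same dispersion for every gene and all libraries independent. The fit with the block was not tested in that way. No replicate pair was within sampling noise (the smallest chi-square was 11.1 times its degrees of freedom). The labels call the replicates biological without saying what was separate, so p-values measure the spread between these samples.

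Same-numbered shNT and shADAR1 libraries deviated together from their group means (log2(CPM + 0.5) over all genes tested): the correlation was 0.337, 0.397 and 0.484 in BT549, 0.512, 0.616 and 0.716 in HCC1806, 0.366, 0.633 and 0.283 in MDAMB231, and 0.304, 0.299 and 0.18 in MDAMB468. The numbers come from the sample titles and were read as pairing the arms, and the fit with a replicate block within each line is given where it changes a call.

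Gene symbols came from a name table by Ensembl ID (33972 of 37416 genes). Gene coordinates are the files' own; 34265 genes were in GENCODE 29 (GRCh38) and 31354 of these, with 38 of the 41 members, had the same start and end. All members are named, with ADAR and MDM2; of the other pathway lists, up to 3 genes per direction with the smallest p in the mean of the lines among those past the threshold, and EEFSEC, which was named after its values were seen. The members and lists were chosen with earlier results of these data known. Alternatives were DESeq2 1.42.0, scaling by RLE or the upper quartile, other filters, the block, smaller sets of libraries, and leaving out each library; fits leaving out each same-numbered pair were added after seeing the data.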

Additional observations from a re-analysis of the deposited data

Results flagged for a closer look

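The change of 3 members differed between lines in the joint test of the fit with the replicate block. For GSR the adjusted p was 0.00327, with changes (in the fit without the block) of -0.16, -0.09, -0.65 and 0.03 log2 in BT549, HCC1806, MDAMB231 and MDAMB468. ME1 gave 0.0454, with 0.33, -0.03, -0.12 and 0.03, and TFRC gave 0.045, with -0.18, -0.20, 0.10 and -0.05. Without the block none of the 3 passed (adjusted p of 0.781 for GSR, 1.0 for ME1 and TFRC). Leaving out 1 pair kept GSR past the threshold in all 12 fits, ME1 in 4 and TFRC in 3.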

How the results depend on the processing

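The block was the setting that moved the members most. With the replicate block, called members went from 0 to 6 in BT549, 0 to 1 in HCC1806, 1 to 8 in MDAMB231, 0 to 8 in the mean and 0 to 3 in the joint difference; the count in MDAMB468 stayed at 0. The mean gave 1 member with RLE scaling, 1 with upper-quartile scaling, 1 with no filter on low counts, 2 with at least 10 counts in every library and 3 with DESeq2. MDAMB231 gave 2 with DESeq2 and 0 in the fit of its 6 libraries alone. Leaving out 1 library gave 0 to 3 members in MDAMB231 (0 without replicate 1 of shADAR1 or replicate 2 of shNT, 3 without replicate 2 of shADAR1), 0 to 2 in the mean (2 without replicate 2 of MDAMB231 shADAR1, 1 without replicate 3 of BT549 shNT, HCC1806 shADAR1 or MDAMB468 shNT), 0 to 1 in the joint difference (1 without replicate 2 of MDAMB231 shADAR1) and 0 to 0 in BT549, HCC1806 and MDAMB468. Leaving out 1 pair under the block, chosen after seeing the data, gave 1 to 5 in BT549, 0 to 1 in HCC1806, 4 to 10 in MDAMB231, 0 to 1 in MDAMB468, 7 to 10 in the mean and 1 to 7 in the joint difference. No value changed its sign past the threshold. The baseline counts stayed between 25 and 40 members under the alternatives run; a replicate block could not be fitted for them, since numbers pair arms, not lines. The cause of these shifts was not tested. Depth limits SLC40A1, ALOX5 and ALOX15B in the lines where they are near 0, and the shallowest library is replicate 1 of MDAMB231 shNT.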
